A study of Mus musculus with 2 samples.

Results

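Mitosis, spindle and kinetochore genes were compared between CT26 cells, a mouse colon carcinoma line, carrying lentiviral mouse Oct4 together with human SOX2 and CT26 cells given the empty lentiviral vector. The 50 genes were taken by symbol from a list of names, and all 50 were found among the 54532 genes of the deposited table. RNA was taken after 4 days of culture in serum-containing medium. Both groups share the parental line and the viral treatment, and the labels name the control wild type. Whether cells were sorted, selected or cloned after infection is not stated in the labels. Each group is 1 library, so a difference below is a difference between these libraries and has no replicate check. Levels are FPKM, fragments per kilobase of gene scaled to a common depth, which makes genes of different length comparable. Where a pair of FPKM values or read numbers is given, the control comes first.

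Mitosis is driven by the kinase Cdk1 bound to B-type cyclins, which switches on further kinases such as Plk1 and the Aurora kinases. Kinetochores, protein assemblies built on centromeric chromatin, then attach each chromosome to spindle microtubules, while kinesin motors and microtubule-bundling proteins shape the spindle. A checkpoint holds the anaphase-promoting complex inactive until every kinetochore is attached, after which its activator Cdc20 starts the destruction of cyclin B and securin. Transcripts of most of these proteins accumulate in G2 and mitosis and are low in resting cells, which is why several of them serve as markers of proliferation in tumours.

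Reads assigned to genes numbered 32262408 for the control and 31521115 for the Oct4/SOX2 library. Pou5f1, which encodes Oct4, had 0 reads in the former and a level of 173 FPKM in the latter. Mouse Sox2 stood at 14.1 and 23.3 FPKM, and whether reads of the human SOX2 vector were assigned to it was not tested. Of 9 colon epithelial markers 3 reached 1 FPKM in either library (Krt20, Krt18 and Lgals4), and Cdh1 had 0 reads in both. These 9 summed to 32.7 FPKM in the control and to 41.7 FPKM in the Oct4/SOX2 library, with Krt20 higher there (14.9 and 28.3 FPKM) and Krt18 lower (15.2 and 11.3 FPKM). No leukocyte or endothelial marker of the 5 and 3 checked reached 1 FPKM, whereas 5 of 6 fibroblast and mesenchymal markers did. The sum of those 6, most of it Vim, was 862 FPKM for the control and 1319 FPKM for the Oct4/SOX2 library, and the part of these markers in the results below was not tested. Vim and Col1a2 were higher in the latter, while the other 4, Col1a1 (62.1 and 40.0 FPKM), Pdgfrb (14.1 and 4.93 FPKM), Pdgfra and Dcn, were lower.

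Nearly all of the mitotic genes were higher in the Oct4/SOX2 library, none of them by 2-fold. Summed over the 50 genes the control had 1075 FPKM and the Oct4/SOX2 library 1385 FPKM, a ratio of 1.29. Their share of all gene-assigned reads was 0.541% (95% exact binomial interval 0.539 to 0.544) in the control and 0.724% (0.721 to 0.727) with Oct4/SOX2. This and later intervals reflect the counting of reads alone, and PCR copies of a molecule can make that error look smaller than it is. In bulk RNA a larger fraction of cells in G2 or mitosis and more of these transcripts per cell cannot be told apart.

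Of the 50 genes 49 reached 1 FPKM in at least 1 library. Cenpk, a kinetochore component, was the exception at 0.821 and 0.990 FPKM. On the scale used for counting, the log2 ratio of FPKM + 1 (Oct4/SOX2 over control), 48 of the 49 lay above 0, where 48.3% of all 12401 genes measured did. The median of the 49 was 0.34, beside -0.01 over all genes measured, and their quartiles were 0.26 and 0.49. The lowest fold level counted is a log2 ratio of 0.32, at which a library stands 25% above the other on this FPKM + 1 scale, so genes at low levels need a larger plain ratio to reach it. Higher by 25% or more were 29 of the genes, against a background of 16.1% of all genes and 13.8% of protein-coding genes. None had the control 25% or more above, where 16.9% of all genes did. At 1.5-fold 5 were higher, namely Plk1, Nuf2, Kif2c, Mki67 and Ncapd2, beside 6.58% of all genes and 4.71% of protein-coding genes, and none was lower, beside 6.34%. No member reached 2-fold in either direction, which 2.42% of all genes did upward and 1.85% downward. The count at 1.5-fold was 10 with a pseudocount of 0.1 FPKM or with plain read totals, and 3 with a pseudocount of 5 FPKM, which left 19 at the 25% level.

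The exact 95% counting interval of the plain FPKM ratio lay wholly above 1 for 47 of the 49, beside 32.1% of all genes, and wholly below 1 for 1, Bub1b, beside 35.2%. Bub3 was the remaining gene, with an interval that held 1. At this depth the intervals of most measured genes exclude 1, and none of them covers the spread between cultures. Ratios and ranges given in brackets from here on are plain FPKM ratios with this interval.

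**Figure D1:**
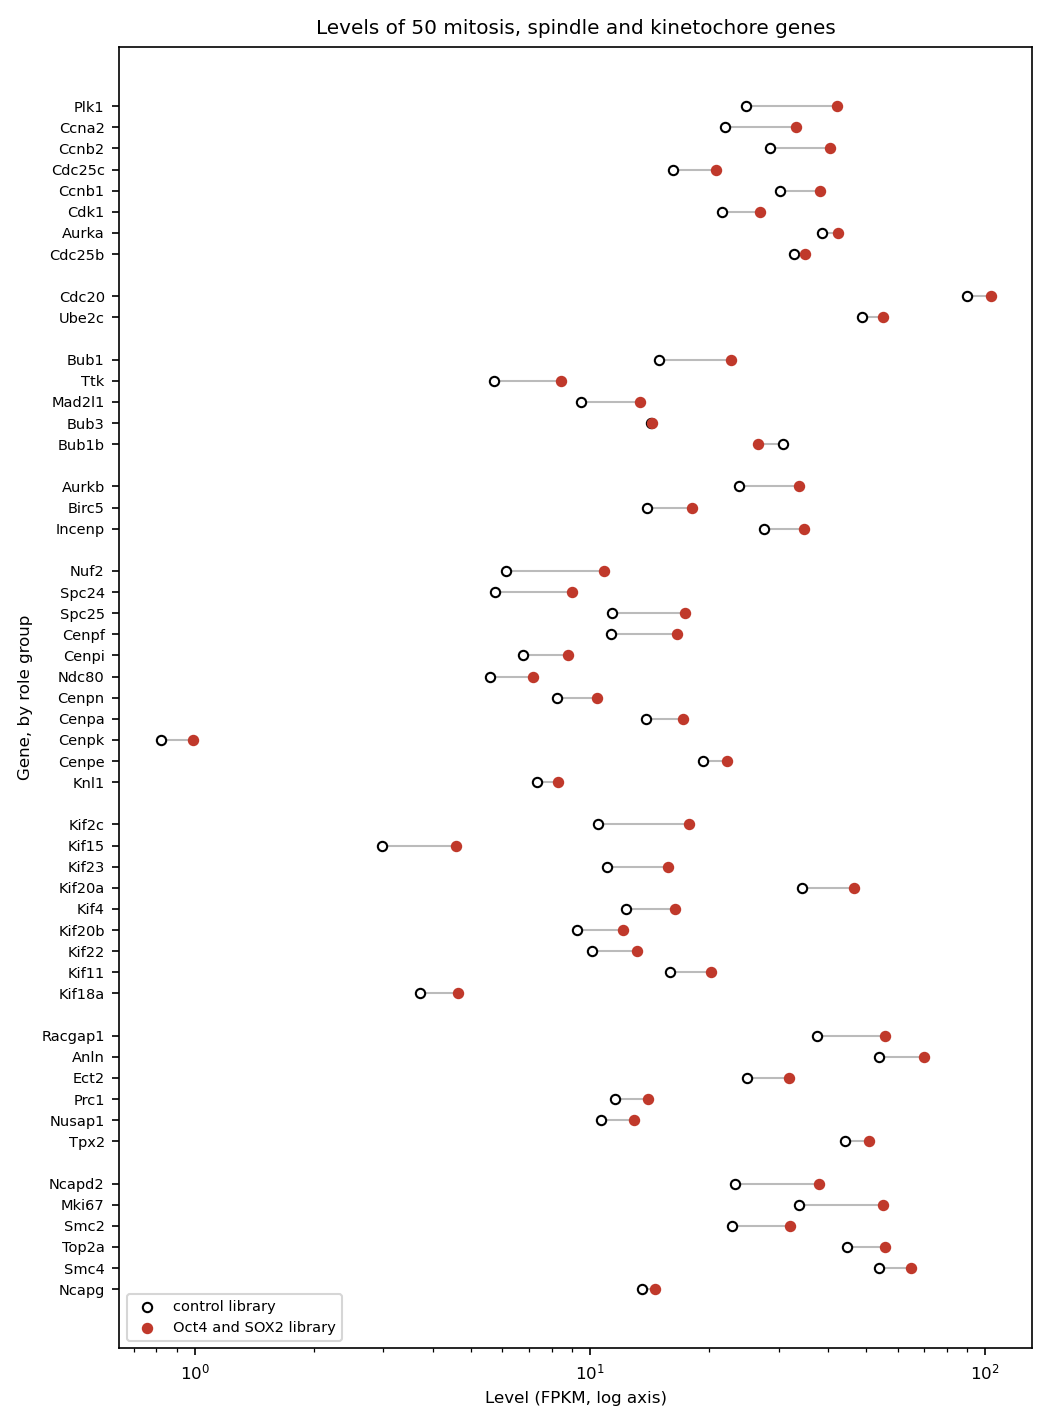
Levels of the 50 genes in FPKM on a log axis, in the control library (open circles) and the Oct4/SOX2 library (red), ordered by role group and by ratio within it. The red point lies to the right of the open one for every gene except Bub1b, and levels run from under 1 FPKM for Cenpk to 103 FPKM for Cdc20.

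The promoters of these genes were searched for short sequence elements, which describes the list and not a difference between the libraries. Because the list holds mitotic genes, elements known from such genes were likely to be frequent in it. A pair of short elements are textbook features of genes expressed in G2 and mitosis: the CCAAT box bound by NF-Y and the cell cycle genes homology region (CHR), TTTGAA, contacted by the MuvB complex that works with B-MYB and FOXM1. RefSeq promoters, which run from 250 bases before to 50 bases after an annotated start on GRCm38.p6, were matched by symbol for 42 of the 50 genes and gave 47 sequences of 300 bases. TTTGAA, read on both strands, was in 34 of the 47, or 72.3%, against 17.9% of all 32851 promoters in the table and 11.98% of those of measured protein-coding genes. CCAAT, on both strands, was in 36, or 76.6%, against 37.4% and 38.5%. Both were in 28, or 59.6%, against 6.95% and 5.01%. The variant TTTAAA, which shares no match with TTTGAA, was in 9, or 19.1%, against 13.2% of all promoters and 9.06% of those of measured protein-coding genes.

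Matches to TTTGAA lay mostly near the start site. The 45 matches began between positions -234 and 40 from it, with a median of -15, and 32 of them began no more than 60 bases before it. The 71 CCAAT matches had their median at -71. These are letter matches and not measured binding sites.

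**Figure D2:**
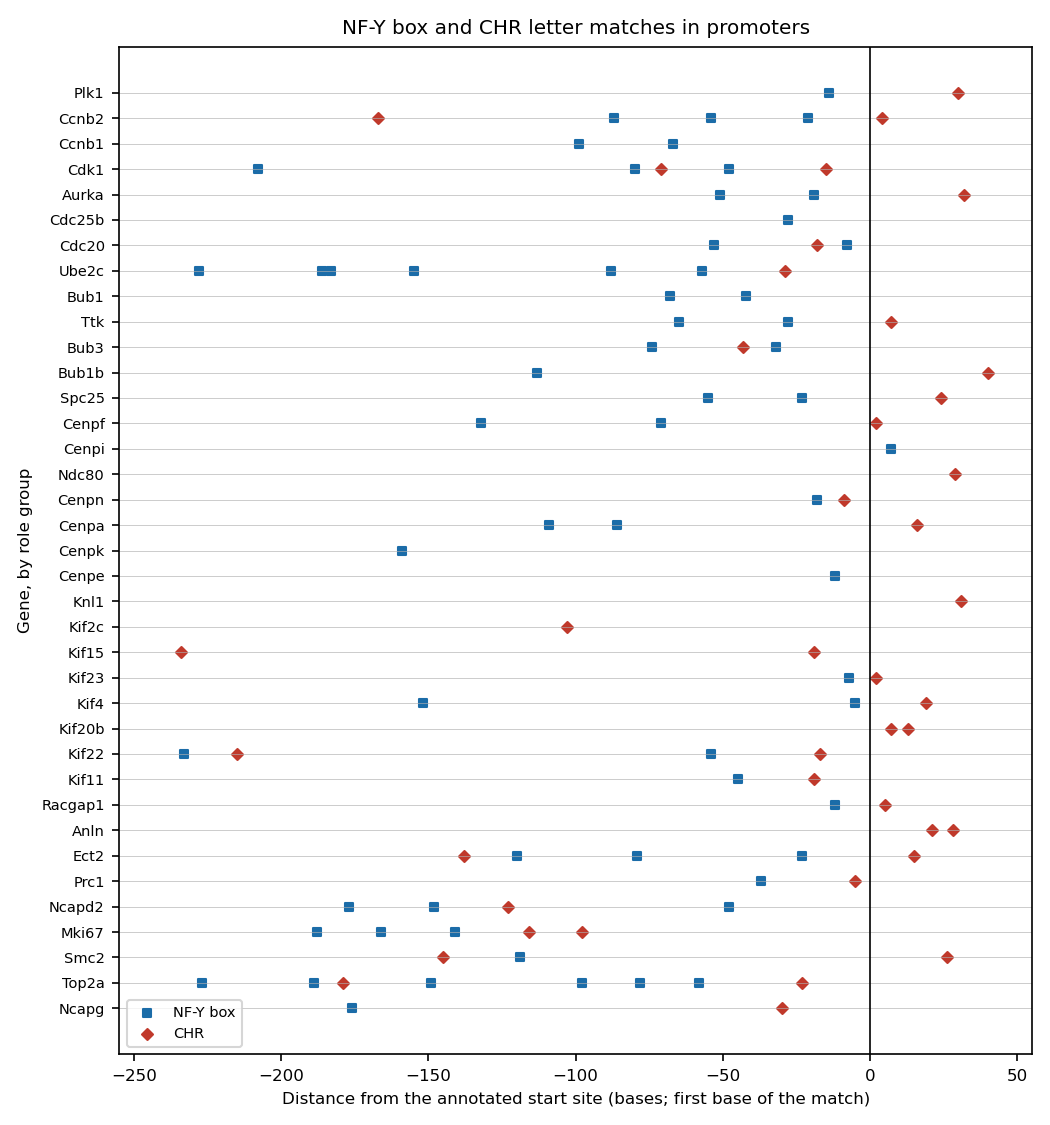
Position of matches to the CCAAT box of NF-Y (blue squares) and CHR matches (red diamonds) along the promoters of the members that hold at least 1 of them, with the annotated start site at 0 and a single promoter, of the lowest coordinate among those with a match, drawn where a gene has several. The 41 CHR matches drawn have a median of -9 and the 62 CCAAT matches drawn lie further upstream, with a median of -72.5.

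The 250 bases before the start site are shown for 5 members: Plk1 and Nuf2, the genes with the highest log2 ratios, Cdc20, the most expressed, Mki67, the proliferation marker, and Bub1b, the gene that was lower. Capitals mark the CCAAT box, the CHR and the CHR variant, each on either strand.
Plk1, chr7:122159185-122159434, plus strand: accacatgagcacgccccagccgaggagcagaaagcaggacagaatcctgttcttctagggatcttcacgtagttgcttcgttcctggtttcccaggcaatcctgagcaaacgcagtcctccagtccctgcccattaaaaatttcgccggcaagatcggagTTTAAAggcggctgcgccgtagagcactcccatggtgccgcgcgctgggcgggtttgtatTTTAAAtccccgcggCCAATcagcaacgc
Nuf2, chr1:169531465-169531714, minus strand: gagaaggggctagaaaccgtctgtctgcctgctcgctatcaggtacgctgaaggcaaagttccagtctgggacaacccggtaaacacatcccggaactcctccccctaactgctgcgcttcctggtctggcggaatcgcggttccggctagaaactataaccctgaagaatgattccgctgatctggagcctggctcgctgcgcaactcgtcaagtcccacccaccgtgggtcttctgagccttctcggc
Cdc20, chr4:118437344-118437593, minus strand: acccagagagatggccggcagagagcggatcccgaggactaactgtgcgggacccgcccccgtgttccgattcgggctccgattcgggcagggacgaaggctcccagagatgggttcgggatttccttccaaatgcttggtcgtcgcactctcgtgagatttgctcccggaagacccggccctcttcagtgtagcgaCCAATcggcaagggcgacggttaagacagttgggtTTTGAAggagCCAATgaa
Mki67, chr7:135716380-135716629, minus strand: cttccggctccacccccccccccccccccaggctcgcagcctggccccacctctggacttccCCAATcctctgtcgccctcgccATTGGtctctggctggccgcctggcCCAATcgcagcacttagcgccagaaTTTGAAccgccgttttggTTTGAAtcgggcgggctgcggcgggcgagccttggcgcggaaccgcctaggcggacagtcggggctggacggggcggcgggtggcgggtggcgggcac
Bub1b, chr2:118597961-118598210, plus strand: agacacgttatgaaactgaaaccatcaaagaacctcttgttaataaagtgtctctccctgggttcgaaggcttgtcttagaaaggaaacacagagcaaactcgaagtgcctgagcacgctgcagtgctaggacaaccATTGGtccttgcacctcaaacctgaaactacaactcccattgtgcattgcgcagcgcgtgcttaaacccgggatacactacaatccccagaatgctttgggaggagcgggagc

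Cdc20 holds CCAAT at -53 and -8 and TTTGAA at -18. Plk1 holds CCAAT at -14 and TTTAAA at -29 and -89, with TTTGAA 30 bases after the start. Bub1b holds CCAAT on the other strand at -113, and its TTTGAA lies 40 bases after the start, outside the stretch shown. Nuf2, with one of the highest ratios, holds none of the 3 in this window. The windows below, of 30 bases each, show the CHR match nearest the start site, in capitals, for further members of different roles.
Ccnb2, chr9:70421533-70421562, minus strand: agcggcgcggtaTTTGAAtcgcggaccggg
Cdk1, chr10:69352910-69352939, minus strand: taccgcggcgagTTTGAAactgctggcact
Cenpf, chr1:189688067-189688096, minus strand: ggcggcgggcagTTTGAAtcgctcgtgctg
Ttk, chr9:83834684-83834713, plus strand: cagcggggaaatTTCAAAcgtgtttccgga
Racgap1, chr15:99651634-99651663, minus strand: ctggtgcgtgatTTTGAAccggatctggcg
Kif23, chr9:61946780-61946809, minus strand: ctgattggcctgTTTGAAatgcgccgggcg
Kif11, chr19:37376351-37376380, plus strand: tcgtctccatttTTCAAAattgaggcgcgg
Top2a, chr11:99024195-99024224, minus strand: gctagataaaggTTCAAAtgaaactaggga
Cenpa, chr5:30666890-30666919, plus strand: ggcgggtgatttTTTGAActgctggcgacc
Bub3, chr7:131560315-131560344, plus strand: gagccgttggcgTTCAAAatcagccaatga

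Within the list, median ratios were close with and without either element. The 31 members with TTTGAA had a median log2 ratio of 0.35 (range -0.20 to 0.74), and the 10 without it 0.33 (0.09 to 0.73). For CCAAT the medians were 0.33 over 30 genes with it and 0.36 over 11 without. Bub1b, the gene that was lower, and Bub3, with nearly equal levels, hold both elements.

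The cyclins, kinases and phosphatases that open mitosis were all higher, with a median log2 ratio of 0.33 over 8 genes, 5 of them by at least 25%. Of all genes 48.3% lay above 0 and 16.1% were higher by at least 25%. Plk1, the polo-like kinase that matures centrosomes and feeds back on Cdk1, was at 24.8 FPKM in the control library against 42.2 FPKM in the Oct4/SOX2 library, 1.70-fold higher (1.60 to 1.81), on 1739 and 2955 reads. It lies on chromosome 7 from 122159439 to 122169873 in GRCm38 and its principal transcript has 10 exons. Ccna2, the cyclin A gene that acts from S phase into early mitosis, was at 21.98 FPKM in the control library against 33.1 FPKM in the Oct4/SOX2 library, 1.51-fold higher (1.44 to 1.58). The B-type cyclin genes Ccnb2 and Ccnb1 were at 28.5 and 40.4 FPKM and at 30.3 and 38.1 FPKM, respectively.

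Those cyclin values correspond to ratios of 1.42 (1.32 to 1.52) for Ccnb2 and 1.26 (1.21 to 1.31) for Ccnb1, and their kinase partner Cdk1 lay close to the latter at 1.248 (1.19 to 1.31), from 21.6 and 27.0 FPKM. The phosphatases that free Cdk1 of its inhibitory phosphates differed from each other. Cdc25c was at 16.2 and 20.8 FPKM, 1.28-fold higher (1.18 to 1.39), and Cdc25b at 32.8 and 34.96 FPKM, 1.07-fold higher (1.02 to 1.11). Aurka, the centrosomal Aurora kinase gene, had the highest control level of the group, 38.6 FPKM in the control library against 42.4 FPKM in the Oct4/SOX2 library, and was 1.10-fold higher (1.05 to 1.15). Plk1, which Aurora A activates, thus differed more than Aurka, with a ratio of ratios of 1.55 (1.43 to 1.67). That pair and the 14 other pairs of members compared were chosen after their values were seen.

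The anaphase-promoting complex is the ubiquitin ligase that ends mitosis. Its activator Cdc20 and its ubiquitin-conjugating enzyme Ube2c were well expressed and in the lower part of the range of ratios. Cdc20 was at 89.8 FPKM in the control library against 103 FPKM in the Oct4/SOX2 library, 1.15-fold higher (1.11 to 1.19). Ube2c was at 48.7 FPKM in the control library against 55.2 FPKM in the Oct4/SOX2 library, 1.13-fold higher (1.09 to 1.18). Neither reached the 25% level.

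The 5 spindle checkpoint genes divided. Bub1, a kinase that marks kinetochores for the checkpoint, was at 14.9 FPKM in the control library against 22.8 FPKM in the Oct4/SOX2 library, 1.53-fold higher (1.44 to 1.61). Ttk, the Mps1 kinase at the head of the pathway, was at 5.73 and 8.45 FPKM, 1.48-fold higher (1.36 to 1.61), and Mad2l1, whose product Mad2 captures Cdc20, at 9.48 and 13.4 FPKM, 1.41-fold higher (1.34 to 1.48). These 3 passed the 25% level, beside 16.1% of all genes, whereas the partners of Mad2 in the inhibitor of Cdc20 did not.

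Bub1b, which encodes the BubR1 subunit of that inhibitor, was the only member below its control level, at 30.8 FPKM in the control library against 26.6 FPKM in the Oct4/SOX2 library, 1.16-fold lower (1.10 to 1.21), on 4198 and 3628 reads. It lies on chromosome 2 from 118598211 to 118641591 in GRCm38, with 23 exons in its principal transcript, and no listed gene with 1 FPKM or more shares its exons. Bub3, which binds both Bub1 and BubR1, was at 14.2 and 14.4 FPKM, a ratio of 1.01 (0.961 to 1.06). Bub1 and Bub1b, which are paralogs, were therefore 1.76-fold apart in ratio (1.64 to 1.89). In the control Bub1b was expressed above Bub1, 30.8 against 14.9 FPKM, and with Oct4/SOX2 the levels were 26.6 against 22.8 FPKM.

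**Figure D3:**
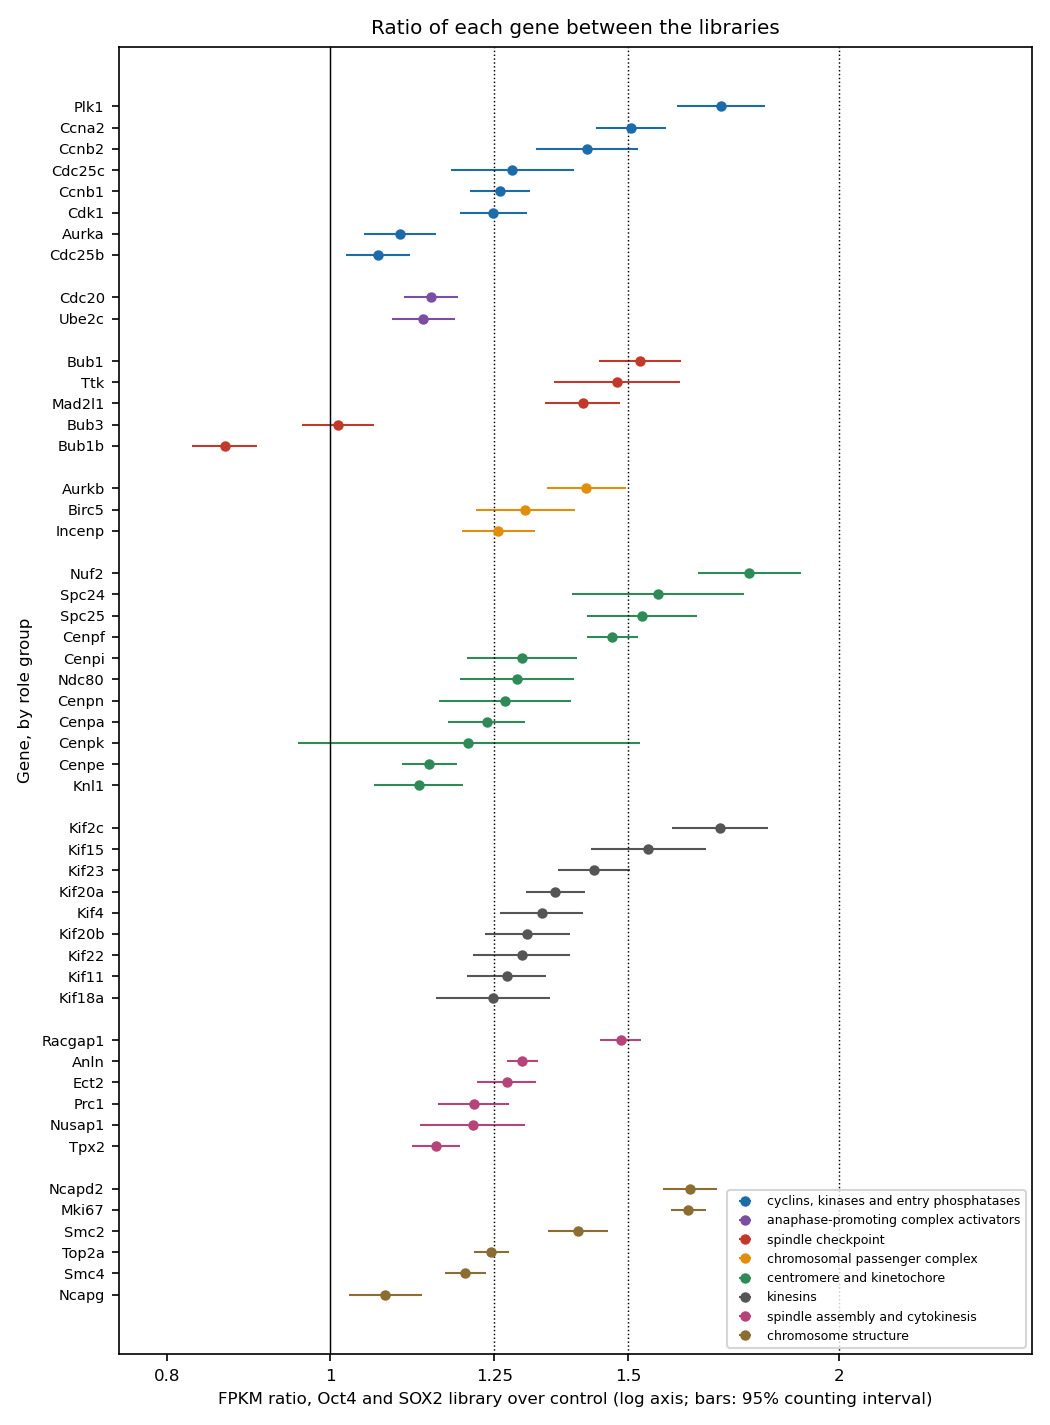
Plain FPKM ratio of each gene, Oct4/SOX2 library over control, on a log axis, with 95% counting intervals. Dotted lines mark the 3 fold levels as plain ratios, the highest being 2. The counts in the text were made on the FPKM + 1 scale, so a gene can pass a line here without being counted. Ccna2, at 1.51 here, was not among the 5 counted at 1.5-fold. No gene reaches 2, the bars of Bub3 and the weakly expressed Cenpk cross 1, and Bub1b lies to the left of 1 at 0.866.

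The chromosomal passenger complex, which corrects faulty attachments and later directs cytokinesis, was higher for its 3 listed subunits, beside 48.3% of all genes. Aurkb, its Aurora B kinase, was at 23.9 FPKM in the control library against 33.8 FPKM in the Oct4/SOX2 library, 1.42-fold higher (1.34 to 1.497). Birc5, the gene for survivin, was at 13.9 and 18.1 FPKM, 1.30-fold higher (1.22 to 1.40), and Incenp, the scaffold, at 27.6 and 34.7 FPKM, 1.26-fold higher (1.196 to 1.32). Borealin, the remaining subunit, is encoded by Cdca8, which is no member and stood at 10.7 and 11.7 FPKM, 1.10-fold higher (1.03 to 1.18). Aurkb differed more than Aurka, with a ratio of ratios of 1.29 (1.199 to 1.39).

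Centromere and kinetochore genes had a median level of 7.35 FPKM in the control over 11 genes and 10.4 FPKM with Oct4/SOX2, beside 15.4 and 20.5 FPKM over all 50. All 10 that were measured lay above 0, beside 48.3% of all genes, with a median log2 ratio of 0.32. On the FPKM + 1 scale 5 of them were higher by 25% or more, beside 16.1% of all genes. By the plain ratios given below more of them were. The NDC80 complex, the main microtubule coupler, is built from equal numbers of its 4 subunits. Nuf2 was at 6.13 FPKM in the control library against 10.8 FPKM in the Oct4/SOX2 library, 1.77-fold higher (1.65 to 1.90), on 1241 and 2192 reads. It had the largest plain ratio of the 50 genes and lies on chromosome 1 from 169497934 to 169531464 in GRCm38.

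The other subunits were at 5.75 and 8.98 FPKM for Spc24, 11.4 and 17.4 FPKM for Spc25 and 5.57 and 7.18 FPKM for Ndc80. Their ratios were 1.56 (1.39 to 1.76), 1.53 (1.42 to 1.65) and 1.29 (1.19 to 1.39), respectively. Nuf2, the direct partner of Ndc80 in the complex, thus differed by more than Ndc80 did, with a ratio of ratios of 1.37 (1.24 to 1.52). For Spc25 against Ndc80 it was 1.19 (1.07 to 1.32).

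Among the larger kinetochore proteins, Cenpf, a corona protein that gathers on kinetochores in G2, was at 11.3 FPKM in the control library against 16.6 FPKM in the Oct4/SOX2 library, 1.47-fold higher (1.42 to 1.52). Cenpe, a kinetochore kinesin, was the most expressed of the group at 19.4 and 22.2 FPKM and was 1.14-fold higher (1.10 to 1.19). Knl1, the scaffold that recruits Bub1 and BubR1, had the lowest log2 ratio among the 10, at 7.35 and 8.29 FPKM, 1.13-fold higher (1.06 to 1.198). Cenpa, the histone H3 variant that defines the centromere, was at 13.9 and 17.2 FPKM, 1.24-fold higher (1.17 to 1.30).

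Of the proteins bound to centromeric chromatin, Cenpi was at 6.78 and 8.80 FPKM and Cenpn at 8.24 and 10.4 FPKM. Their ratios, 1.30 (1.205 to 1.40) and 1.27 (1.16 to 1.39), lay close to that of Cenpa. Cenpk, with 137 and 165 reads, had a ratio of 1.21 (0.956 to 1.52), which counting error alone does not separate from 1.

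All 9 genes of the kinesin group, which leaves out Cenpe, were higher, 8 of them by at least 25%, and their median log2 ratio was 0.39. The shares over all genes were 48.3% above 0 and 16.1% higher by at least 25%. Kif2c, the microtubule-depolymerising kinesin MCAK of the centromere, was at 10.5 FPKM in the control library against 17.8 FPKM in the Oct4/SOX2 library, 1.70-fold higher (1.59 to 1.81), on 1460 and 2476 reads. It lies on chromosome 4 from 117159639 to 117182639 in GRCm38. Kif15, a spindle motor that backs up Kif11, was the least expressed kinesin in the control, at 2.97 and 4.58 FPKM, and was 1.54-fold higher (1.43 to 1.67). Kif11 itself, the motor that pushes spindle poles apart, was at 15.9 and 20.2 FPKM, 1.27-fold higher (1.21 to 1.34).

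The kinesins of the central spindle and midbody were intermediate. Kif20a, the most expressed of the 9, was at 34.3 FPKM in the control library against 46.6 FPKM in the Oct4/SOX2 library, 1.36-fold higher (1.30 to 1.41). Kif23, the motor of centralspindlin, was at 11.03 and 15.8 FPKM, 1.43-fold higher (1.36 to 1.503), and Kif20b at 9.25 and 12.1 FPKM, 1.31-fold higher (1.23 to 1.39). Kif4, Kif22 and Kif18a act on chromosome arms, chromosome movement and plus-end dynamics. Kif4 was at 12.3 and 16.4 FPKM and Kif22 at 10.1 and 13.1 FPKM, with ratios of 1.33 (1.26 to 1.41) and 1.30 (1.21 to 1.39). Kif18a had the lowest ratio of these 9, 1.247 (1.15 to 1.35), at 3.72 and 4.64 FPKM. The kinetochore kinesin Cenpe, counted with the kinetochore genes, was lower at 1.14 (1.10 to 1.19).

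Genes of spindle assembly and cytokinesis were higher in all 6 cases, with a median log2 ratio of 0.30 and 3 by 25% or more. Over all genes 48.3% lay above 0 and 16.1% were higher by 25% or more. Racgap1, the GTPase-activating partner of Kif23 in centralspindlin, had the highest ratio of the group, at 37.5 FPKM in the control library against 55.6 FPKM in the Oct4/SOX2 library, 1.48-fold higher (1.44 to 1.53). Ect2, the exchange factor that centralspindlin brings to the midzone to activate RhoA, was at 25.02 and 31.8 FPKM, 1.27-fold higher (1.22 to 1.32). Anln, for the contractile ring scaffold anillin, had the most reads of any member, 15548 and 20151, and was at 53.7 and 69.8 FPKM, 1.30-fold higher (1.27 to 1.33). Centralspindlin's subunits Kif23 and Racgap1 thus had ratios of 1.43 and 1.48, while Ect2 and Anln were close to 1.3.

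Spindle assembly factors differed least in this group. Tpx2, which activates Aurora A on the spindle, was at 44.1 and 50.9 FPKM, 1.15-fold higher (1.12 to 1.19). Its ratio and that of Aurka, 1.10 (1.05 to 1.15), have overlapping intervals. Prc1, the bundler of antiparallel microtubules, was at 11.6 and 14.1 FPKM, 1.22-fold higher (1.16 to 1.28), and Nusap1 at 10.7 and 12.9 FPKM, 1.21-fold higher (1.13 to 1.30).

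Among genes of chromosome structure, Mki67, which encodes the Ki-67 protein used to stain proliferating cells, was at 33.8 FPKM in the control library against 54.99 FPKM in the Oct4/SOX2 library, 1.63-fold higher (1.59 to 1.67). It lies on chromosome 7 from 135689784 to 135716361 in GRCm38. Top2a, the topoisomerase that untangles sister DNA, was at 44.7 FPKM in the control library against 55.7 FPKM in the Oct4/SOX2 library, 1.245-fold higher (1.22 to 1.27). These common proliferation markers therefore differed by unequal amounts, with a ratio of ratios of 1.31 (1.26 to 1.35).

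The condensin I subunits, which compact chromosomes as 1 complex, also differed unequally. Ncapd2 was at 23.3 FPKM in the control library against 38.0 FPKM in the Oct4/SOX2 library, 1.63-fold higher (1.57 to 1.69), and Ncapg at 13.5 and 14.6 FPKM, 1.08-fold higher (1.03 to 1.13), a ratio of ratios of 1.51 (1.42 to 1.61). The ATPase subunits shared with condensin II were at 22.8 and 32.0 FPKM for Smc2 and 53.95 and 64.8 FPKM for Smc4. Their ratios were 1.40 (1.35 to 1.46) and 1.202 (1.17 to 1.24). Ncaph, which closes the ring and is no member, was at 12.4 and 18.2 FPKM, 1.47-fold higher (1.38 to 1.56), so Ncapg had the lowest ratio of the complex.

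Split by level, length or base composition, the list gave close medians on both sides. The 25 members at or below the median mean level of 18.5 FPKM had a median log2 ratio of 0.35 and the 24 above it 0.33. By gene length, split at 4934 bases, the medians were 0.34 on both sides. By transcript GC content, split at 46.1%, they were 0.33 and 0.35. Over all genes the medians of 10 length classes ran from -0.04 to 0.01 and those of 10 GC classes from -0.04 to 0.02.

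**Figure D4:**
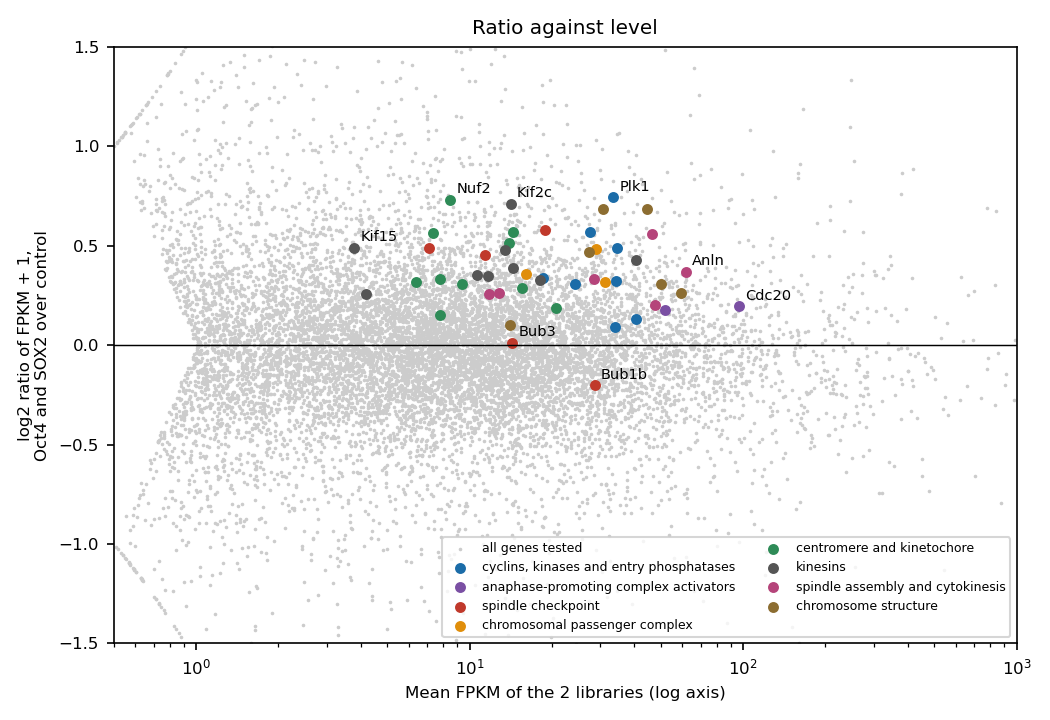
The log2 ratio of FPKM + 1 (Oct4/SOX2 over control) against mean FPKM on a log axis, for all genes measured (grey, the few beyond the frame not drawn) and for the members, coloured by role group. Of the 49 members 48 lie above the line at 0, at low and high levels alike, and Bub1b lies below it at -0.20.

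The other mitotic genes, 117 in 6 lists of which 116 were measured, lay higher too but less evenly. On the FPKM + 1 scale 90 lay above 0, beside 48.3% of all genes, and 39 were higher by 25% or more, beside 16.1%. On that scale 0 had the control 25% or more above, beside 16.9%, and the median log2 ratio was 0.22. The 4 further condensin genes had a median of 0.47, from Ncaph2 at 49.1 and 65.4 FPKM to Ncapd3 at 6.64 and 10.6 FPKM, with Ncapg2 at 8.82 and 12.1 FPKM. Further centromere and kinetochore genes had a median of 0.27, with 24 of 31 above 0. With the highest log2 ratios in that list, Cenpm was 1.78-fold higher (1.59 to 1.997) and Cenpx 1.70-fold higher (1.47 to 1.96), while Mad2l1bp, whose product p31comet removes Mad2 from its target, was lower, at 12.2 and 9.80 FPKM, and Mis18a stood at 6.06 and 5.37 FPKM.

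Further spindle, centrosome and cytokinesis genes had a median of 0.24 with 23 of 25 above 0, beside 48.3% of all genes. Hmmr and Cep55, a spindle protein and a midbody protein gene, were 1.51-fold higher (1.43 to 1.59) and 1.47-fold higher (1.38 to 1.57), and Haus6 and Clasp2 were the lowest, at 10.1 and 9.62 FPKM and 4.38 and 4.19 FPKM. Further entry and exit genes had a median of 0.21 with 17 of 22 above 0. Cdca3 and the kinase gene Melk had the highest log2 ratios of FPKM + 1 among them, and were 1.69-fold higher (1.57 to 1.82) and 1.59-fold higher (1.47 to 1.72). By plain ratio Cdc14a, at the low levels of 0.916 and 1.67 FPKM, was above both. At the other end Cdc14b was at 4.65 and 3.72 FPKM and Ensa, whose product restrains the phosphatase PP2A-B55 in mitosis, was 1.23-fold lower (1.19 to 1.28).

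Genes of the anaphase-promoting complex and of cohesin lay nearer to the background, in which 48.3% of all genes were above 0. The anaphase-promoting complex list, the ligase that Cdc20 activates, had a median of 0.02 with 10 of 17 above 0. Its highest genes were the inhibitor Fbxo5, 1.28-fold higher (1.17 to 1.40), and the alternative activator Fzr1, 1.27-fold higher (1.19 to 1.35), and its lowest were Anapc16, 1.195-fold lower (1.11 to 1.28), and Cdc26, 1.23-fold lower (1.10 to 1.37). Cohesin and separase genes had a median of 0.08 with 12 of 17 above 0.

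In the cohesin list the genes of the anaphase trigger stood at the top. Pttg1, the gene for securin, was at 18.2 FPKM in the control library against 33.0 FPKM in the Oct4/SOX2 library, 1.81-fold higher (1.68 to 1.94). Espl1, the gene for separase, the protease that securin restrains, was at 11.5 FPKM in the control library against 20.5 FPKM in the Oct4/SOX2 library, 1.78-fold higher (1.70 to 1.86). Wapl, the cohesin release factor gene, was at 27.6 and 22.3 FPKM, 1.24-fold lower (1.19 to 1.29), and Esco1 at 7.73 and 7.21 FPKM. Of promoters in the 6 lists TTTGAA was in 15.8% for the anaphase-promoting complex and 21.4% for cohesin and separase. It was in 31.03% for further centromere and kinetochore genes, 37.5% for entry and exit, 40.0% for condensin (2 of 5 promoters) and 60.9% for spindle, centrosome and cytokinesis genes.

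Genes of the preceding cell cycle phases were also higher. The 31 measured genes of G1/S and DNA replication had a median log2 ratio of 0.50. All were above 0 and 25 were higher by 25% or more, beside 48.3% and 16.1% of all genes. They ran from Mcm2 and Gins4 at 1.04 (1.01 to 1.08) and 1.09 (1.004 to 1.19) to Rfc3 at 7.24 and 14.5 FPKM and Tk1 at 2.07 (1.93 to 2.22). TTTGAA was in 13.3% of their promoters. The difference between the medians of the lists was not tested.

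Among 19 regulators of the G2 and mitosis genes 15 lay above 0, beside 48.3% of all genes, with a median of 0.31. Mybl2, the gene for B-MYB, was at 7.94 FPKM in the control library against 15.7 FPKM in the Oct4/SOX2 library, 1.98-fold higher (1.85 to 2.13), and the repressor gene E2f8 at 7.85 and 15.2 FPKM, 1.93-fold higher (1.81 to 2.07). Foxm1, named after its value was seen, was at 43.0 and 69.1 FPKM, 1.61-fold higher (1.56 to 1.65). The lowest were Nfyb, for a subunit of NF-Y, 1.16-fold lower (1.07 to 1.26), and Rbbp4, 1.09-fold lower (1.05 to 1.13). Of the other NF-Y subunit genes, Nfyc was 1.31-fold higher (1.19 to 1.43) and Nfya had a ratio of 0.954 (0.909 to 1.001).

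**Figure D5:**
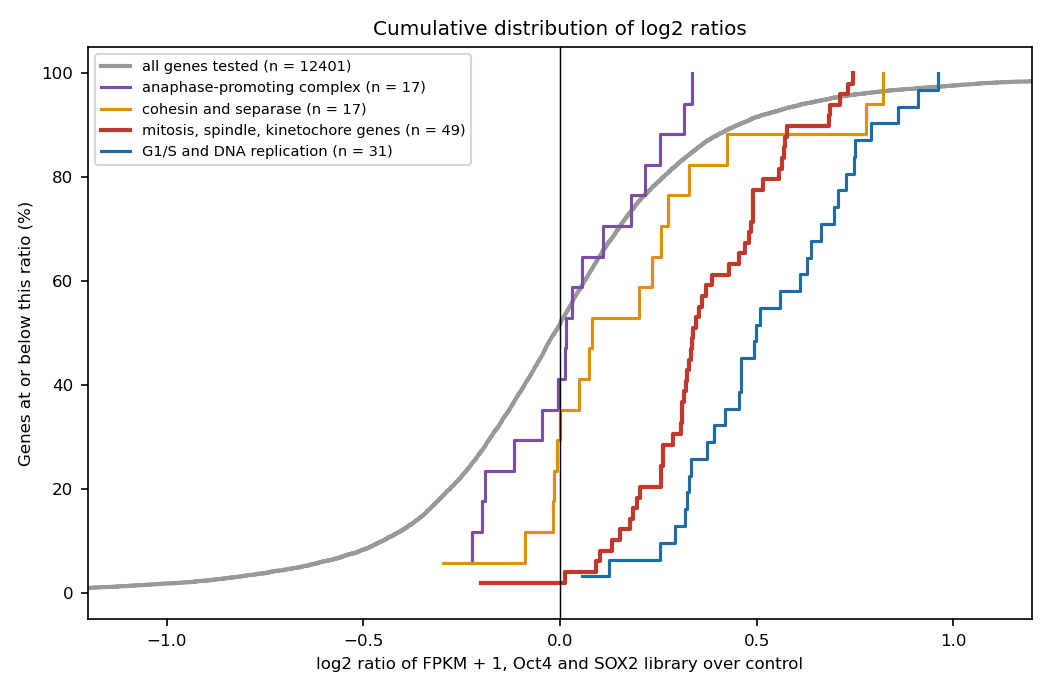
Cumulative share of genes (%) at or below each log2 ratio of FPKM + 1 (Oct4/SOX2 over control; values beyond the frame not drawn) for all genes measured, the 49 measured members and 3 further lists. The curve of the members is shifted to the right of all genes (medians 0.34 and -0.01), the anaphase-promoting complex follows all genes (0.02) and G1/S genes lie furthest right (0.50).

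Shared reads touch part of the list. Exons of 10 members overlap exons of a gene on the opposite strand with at least 1 FPKM, most of all Kif20a, which shares 29.3% of its exonic bases with Cdc23, and whether reads kept their strand is not given in the sources used here. Another 4, Ccnb1, Ccnb2, Ube2c and Bub3, have a listed pseudogene with reads. The median log2 ratio of the 36 measured genes without either was 0.36, with 35 above 0 and 23 higher by 25% or more. Of all genes measured 48.3% were above 0 and 16.1% higher by 25% or more.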

How the data were processed

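RNA from 2 cultures of CT26 cells was sequenced, with 1 library per group. The authors deposited FPKM values and gene lengths for 54532 genes. CASAVA, HISAT2 and featureCounts 1.5.0-p3 on GRCm38 are named per the submitters' processing notes, but neither the FPKM formula nor the annotation release is stated there. FPKM multiplied by gene length fell on whole multiples of a step per library for 100% of values (tolerance 0.001 of a read), and these gave the read numbers. All 50 genes, 8 role groups and 8 further lists were chosen with earlier results of these data known, as were the fold levels.

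The 12401 genes that reached 1 FPKM in either library were measured by the log2 ratio of FPKM + 1, which understates differences of low genes. Plain FPKM ratios have exact conditional binomial (Clopper-Pearson) 95% intervals from the read numbers. Intervals of ratios of ratios use a normal approximation on the log scale. With 1 library per group there was no test across samples. Any member may be named. From each further list the genes with the 2 highest and 2 lowest log2 ratios of FPKM + 1 are given. Cdca8, Cdc14a, Foxm1, Nfya and Nfyc were added after their values were seen. Promoters came from RefSeq (GRCm38.p6), and exons and GC content from GENCODE M21 on the same build. The steps were tested on simulated data. Scripts ran in Python 3.11.15 with pandas 2.3.3, scipy 1.17.1 and numpy 2.4.6, and matplotlib 3.10.9 drew the plots.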

Additional observations from a re-analysis of the deposited data

How the results depend on the processing

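Of 11 alternatives, 9 were planned and 2, centring within GC classes and leaving out members that overlap or resemble another gene, were chosen after seeing the data. The median log2 ratio of the members, 0.34, became 0.37 with a pseudocount of 0.1 FPKM and 0.28 with 5 FPKM. It was 0.35 centred on the median of all genes, 0.35 centred within length classes, 0.35 with protein-coding genes only, 0.36 centred within GC classes and 0.36 without overlapping members. Rescaling without the 50 highest genes or to equal read totals gave 0.37 in both cases. A filter of 5 FPKM gave 0.34 over 47 members and no filter 0.34 over 50.

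Bub1b was the only member below 0 under each of the 11. The count higher by 25% or more, 29, was 19 with a pseudocount of 5 FPKM and 23 to 35 otherwise. The 23 was counted over the 36 measured members without an overlap or near copy, the 29 over 49. The count at 1.5-fold, 5, was 3 with a pseudocount of 5, 9 with GC centring, and 10 with a pseudocount of 0.1 and with either rescaling. Over single members, 504 of 524 values were classed as unchanged and 20 as moved, and 0 changed sign. The margin was set by the counting interval, but a value classed as unchanged can lie outside that interval. Of 87 role group medians 24 were classed as unchanged and 63 as moved, and 0 changed sign. Smaller shifts were classed as moved for these medians, so the counts do not compare them with single members. Centring on the median of all genes took the centromere and kinetochore median from 0.325 to 0.339, which counted as moved. The same step took Ndc80 from 0.316 to 0.330, which counted as unchanged. For centromere and kinetochore genes the median, 0.32, was 0.37 with a pseudocount of 0.1 FPKM and 0.23 with 5 FPKM. No paired analysis was possible because each group has 1 library, and no library could be left out. Depth limits Cenpk, at 137 and 165 reads.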
